A study of Mus musculus with 18 samples.

Results

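The 8 genes described here encode the proteins that bring cystine into the cell and that make, reduce and break down glutathione: Slc7a11, Slc3a2, Gclc, Gclm, Gss, Gsr, Chac1 and Ggct. They were taken by symbol from a table of 55487 genes measured by RNA-seq in mouse embryonic fibroblasts (MEFs), each symbol matched 1 row, and all 8 passed the filter on low counts that left 15381 genes for testing. The 18 libraries fall into 6 groups of 3. Wild-type MEFs, a line of cultured fibroblasts obtained from a cell bank, were kept in medium with the fetal bovine serum S-FBS (Scm) or R-FBS (Rcm), were moved out of Rcm into Scm (R-Scm), or were moved out of Scm into Rcm (S-Rcm). The moved cells were taken 12 h or 24 h after the exchange of serum. The sera were named by the study for cells that were sensitive (S) or resistant (R) to ferroptosis inducers, but no inducer was added to the cells sequenced. No labelled group had its medium replaced by fresh medium with the same serum. Where moved cells are compared with a steady culture, the serum and the change of medium thus cannot be told apart. The labels do not say that the 3 libraries of a group came from separate cultures, and p-values then measure the spread between these libraries, which may be technical.

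Cystine, the oxidised dimer of cysteine, enters the cell through system xc-, an antiporter that exports glutamate in return. Inside the cell cystine is reduced to cysteine, which glutamate-cysteine ligase joins to glutamate in the rate-limiting step of glutathione synthesis, and glutathione synthetase adds glycine. Glutathione is the reductant used by glutathione peroxidase 4 against lipid peroxides, the lipid damage of ferroptosis, and blocking system xc- is a classical way to induce ferroptosis in fibroblasts. Transcription of these genes is known to be driven mainly by NRF2, which binds antioxidant response elements, and by ATF4, the factor of the amino acid and unfolded protein responses.

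The promoters of Slc7a11 and Chac1 are shown because these genes had the largest log2 fold changes of the 8 and are known targets of ATF4. The sequences are the 250 bases before the RefSeq start on GRCm38.p6, written 5′ to 3′ on the strand of the gene, at chr3:50443614-50443863 (minus strand) for Slc7a11 and chr2:119350992-119351241 (plus strand) for Chac1. Capitals mark matches, on either strand, to the core of the CCAAT-enhancer binding protein and ATF response element, searched as TGATGNAAN.
Slc7a11: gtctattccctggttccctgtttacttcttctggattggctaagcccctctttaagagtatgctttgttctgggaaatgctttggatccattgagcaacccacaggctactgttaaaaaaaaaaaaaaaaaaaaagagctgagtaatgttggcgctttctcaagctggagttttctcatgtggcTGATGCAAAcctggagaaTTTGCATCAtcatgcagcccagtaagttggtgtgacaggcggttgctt
Chac1: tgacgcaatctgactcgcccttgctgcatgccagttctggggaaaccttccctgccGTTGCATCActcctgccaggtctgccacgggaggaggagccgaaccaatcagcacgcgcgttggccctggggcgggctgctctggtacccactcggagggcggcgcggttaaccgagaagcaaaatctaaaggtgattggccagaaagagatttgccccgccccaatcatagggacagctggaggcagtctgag

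Slc7a11 held 2 matches, at positions -66 and -48 relative to the start, and Chac1 held 1 match, at position -194. A match is a description of the letters and not a site of binding. Over all 32851 promoter windows in RefSeq, which run from 250 bases before to 50 bases after a start, 3.95% held at least 1 match and 0.0700% held 2 or more. Windows were at hand for 6 of the 8 genes (not Gclc and Gsr), and those of Slc3a2, Gclm, Gss and Ggct held no match. The window of Slc3a2, chr19:8713848-8714147, lies inside the annotated gene, and the outer start of that gene at chr19:8723369 was not searched. The core of the antioxidant response element, searched as TGANNNNGC on both strands, was found 3 times in the window of Slc7a11, 2 times in that of Ggct and 1 time in that of Gclm, and not in those of Slc3a2, Gss and Chac1. The match at position -45 of Slc7a11 overlapped the match to the other motif at -48. This looser motif was present in 41.3% of all windows.

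Total counts per library ran from 14534906 to 20313715. Levels are given as CPM, counts brought to 1 common library total, on library sizes scaled by edgeR's trimmed mean of M-values (TMM), whose factors ran from 0.963 to 1.03. A change was called where the log2 fold change exceeded 0.58 in size and the p of edgeR's quasi-likelihood test, adjusted over the 15381 genes by the Benjamini-Hochberg method, was below 0.05. The log2 fold changes below come from that fit with their standard error (SE). The cells carried most of the listed markers of fibroblasts. Of 11 such markers 10 passed the filter, with Vim at 2848 CPM or more in every library. Dcn passed at a low level, 1.38 to 10.1 CPM, while Lum was at 0 in 15 of 18 libraries. In these bulk samples fewer cells of a type and less RNA per cell cannot be told apart. The 10 markers of other cell types summed to between 2.41 and 6.87 CPM per library, highest in R-Scm 12 h (3.94 to 6.87 CPM). Of the macrophage markers, Adgre1 was at 0 in all 18, while Cd68 was found in every library, at 2.02 to 4.91 CPM. The part of other cell types in the results was not tested.

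Per kilobase of annotated exon, the heavy chain gene Slc3a2 was the most abundant of the 8, with group means of 46.8 to 55.0 CPM per kilobase. Gsr followed at 29.5 to 40.7 CPM per kilobase. The ranges of the next 4 overlapped, with Gclc at 18.8 to 24.3, Chac1 at 9.85 to 21.3, Gclm at 9.14 to 14.4 and Gss at 8.30 to 10.7 CPM per kilobase, and their order was not the same in every group. Chac1 was above Gclc in R-Scm 24 h (20.7 against 18.8) and below Gclm in R-Scm 12 h (9.85 against 14.4). Slc7a11, whose annotated exons span 13922 bases, lay at 1.31 to 3.55 CPM per kilobase, and Ggct was the least abundant at 0.288 to 0.482 CPM per kilobase. These levels depend on the annotated exon length, since reads were counted over genes and not over the transcripts that MEFs use.

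Of the 8 genes, Chac1 was the only one called changed in any comparison by edgeR on the 18 libraries. DESeq2 on the 18 libraries also called Slc7a11, lower in R-Scm 12 h than in Rcm (log2 fold change -1.16, adjusted p 0.0279). By edgeR, Chac1 was lower in Rcm than in Scm and rose between 12 h and 24 h of R-Scm. Its change on R-Scm at 24 h was higher than its change on S-Rcm at 24 h. The count was 1 of 8 lower in Rcm against Scm, where 2.30% of all genes tested were called. It was 0 of 8 in R-Scm 12 h against Rcm (2.74% of all genes called), in R-Scm 24 h against Rcm (0.377%), in S-Rcm 12 h against Scm (0.858%) and in S-Rcm 24 h against Scm (0.338%) by edgeR. At an unadjusted p under 0.05 the counts in the 5 comparisons were 1, 3, 3, 3 and 2 of 8, beside 16.2%, 17.6%, 10.3%, 14.3% and 8.11% of all genes tested. DESeq2 on the 18 libraries called 1, 1, 1, 1 and 0 of 8, beside 3.31%, 3.77%, 1.07%, 1.74% and 0.878% of all genes. The share for R-Scm 24 h against Rcm rested on single libraries: edgeR called 58 genes there, 501 when R-Scm 24 h replicate 1 was left out and 14 when replicate 3 of that group was. Over the 8 genes the median log2 fold change ran from -0.038 to 0.13 in these 5 comparisons, beside -0.0077 to 0.019 for all genes tested.

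**Figure D1:**
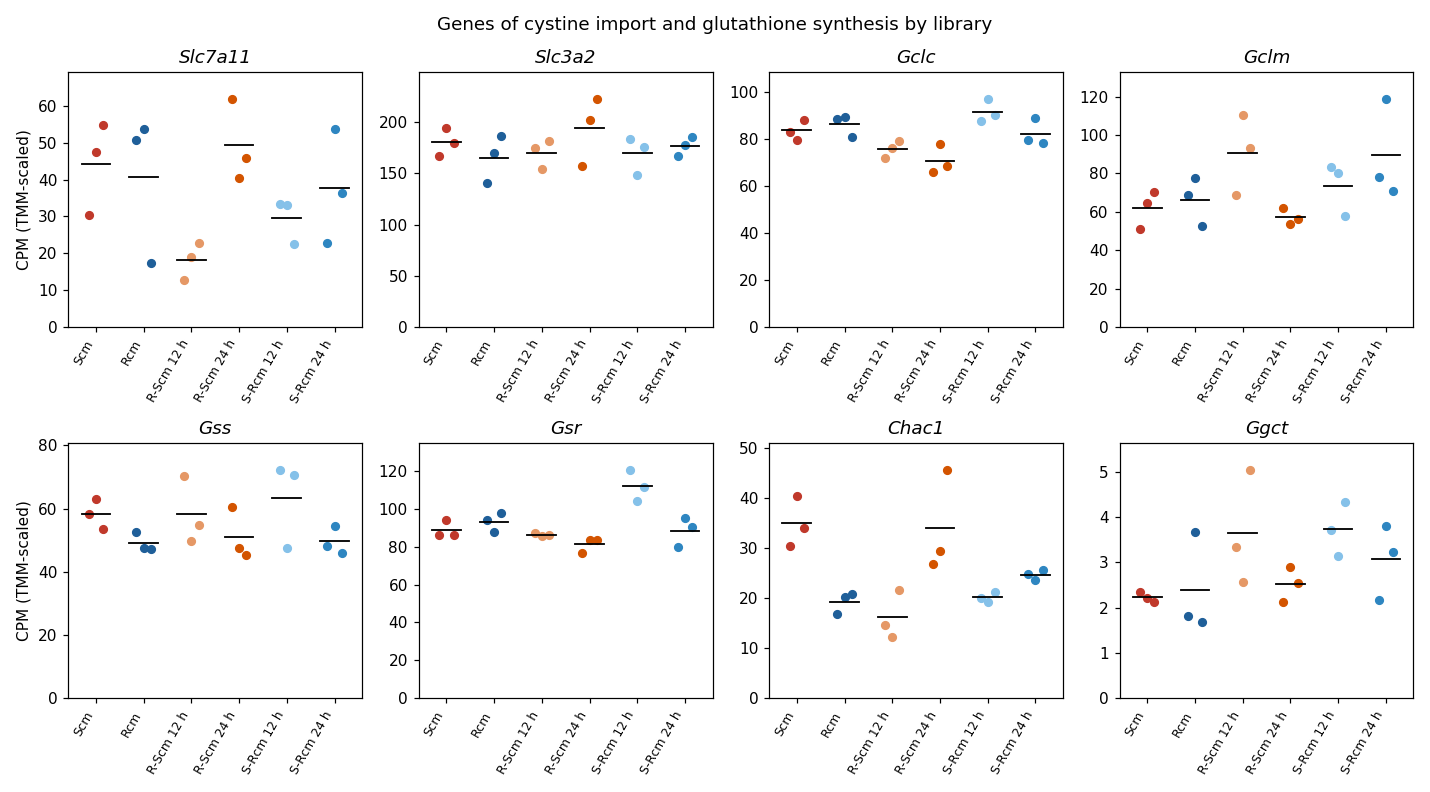
CPM of each of the 8 genes (vertical axes, linear from 0) in the 6 groups (horizontal axes), with 1 point per library and a bar at the mean of 3. Chac1 is at 30.3 to 40.4 CPM in Scm and at 16.9 to 20.8 CPM in Rcm, and Slc7a11 spreads from 17.5 to 53.8 CPM within Rcm alone.

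Slc7a11 encodes xCT, the light chain of system xc- that carries the cystine (ENSMUSG00000027737, chr3:49892526-50443614, minus strand, GRCm38). Its level in the 3 Scm libraries was 30.4, 47.4 and 54.8 CPM, and in the 3 Rcm libraries 50.9, 53.8 and 17.5 CPM. In R-Scm it was 12.8, 19.0 and 22.7 CPM at 12 h and 61.9, 40.5 and 45.9 CPM at 24 h. In S-Rcm it was 33.5, 33.2 and 22.5 CPM at 12 h and 22.8, 53.8 and 36.4 CPM at 24 h. From the lowest, the group means stood in the order R-Scm 12 h, then S-Rcm 12 h, then S-Rcm 24 h, Rcm, Scm and R-Scm 24 h, and the libraries of each neighbouring pair in this order overlapped.

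The largest difference of Slc7a11 was that between 12 h and 24 h of R-Scm, where all 3 libraries at 24 h lay above all 3 at 12 h. Of the 8 genes 4, Slc7a11 among them, did not overlap in this comparison, and the share of all genes was not counted. The difference of Slc7a11 came to 2.72-fold (log2 fold change 1.44, SE 0.40, n = 3 each). Its adjusted p was 0.117 in edgeR, so that it was not called, while DESeq2 on the 18 libraries called it. In R-Scm 12 h against Rcm the log2 fold change was -1.16 (SE 0.40, adjusted p 0.126 in edgeR), and the groups overlapped through Rcm replicate 3. Without Rcm replicate 3 the log2 fold change was -1.52 (adjusted p 0.0268 in edgeR) and passed the call, and DESeq2 called it with that library kept (log2 fold change -1.16, adjusted p 0.0279). Rcm replicate 3 also stood apart from the other 2 Rcm libraries over all genes, with chi-square values per degree of freedom of 34.9 and 36.2 against 10.5 between those 2. Values of this size were not particular to that library, since the pairs within R-Scm 24 h ran from 30.3 to 42.7. In Rcm against Scm the log2 fold change of Slc7a11 was -0.12 (SE 0.39, adjusted p 0.901 in edgeR), and it was 0.23 without Rcm replicate 3.

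Slc7a11 varied more between libraries of the same group than most genes. Its pooled standard deviation (SD) within groups was 0.546 on the log2 CPM scale, above that of 90.1% of all genes tested and of 97.4% of the 500 genes nearest to it in level. The corresponding SD was 0.0873 for Gsr and 0.0885 for Gclc, each below that of most genes tested. The longest annotated transcript of Slc7a11 carries a stretch of 373 to 375 bases that matched transcripts of 9 other genes at 95.2% to 96.5% identity. The alpha-tubulin genes Tuba1a, Tuba1b and Tuba1c were among them and matched on the opposite strand. Tuba1b had 28361 to 40589 counts per library, against 234 to 1050 for Slc7a11. How the counting treated reads with several alignments, and whether it used strand, are not given in the sources used here, and the part of such reads in the counts of Slc7a11 was not tested.

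Slc3a2 encodes CD98hc, the heavy chain that takes xCT and several amino acid exchangers to the plasma membrane (ENSMUSG00000010095, chr19:8706882-8723369, minus strand). It ranged from 140 to 222 CPM over the 18 libraries and did not follow Slc7a11 (Pearson's r = 0.04 over 18 libraries). Its group means ran from 165 ± 23.2 CPM (SD, n = 3) in Rcm over S-Rcm 12 h, then R-Scm 12 h, then S-Rcm 24 h and Scm to 194 ± 33.5 CPM in R-Scm 24 h, and each neighbouring pair overlapped. The log2 fold changes lay between -0.13 and 0.23 in the 5 comparisons, with SEs of 0.13 and no call. A repeated stretch of 143 to 182 bases in its transcript matched transcripts of 122 other genes at 95.03% to 98.3% identity.

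Of the other light chains that pair with CD98hc, 5 were listed and 3 passed the filter. Slc7a5, the large neutral amino acid transporter LAT1, was called lower in S-Rcm 12 h than in Scm. It stood at 196, 188 and 191 CPM in Scm and at 120, 111 and 107 CPM in S-Rcm 12 h (log2 fold change -0.77, SE 0.13, adjusted p 0.00657 in edgeR), and it was called in each of 17 alternative analyses. After 12 h of the opposite exchange, R-Scm, Slc7a5 was at 110, 116 and 150 CPM against 180, 155 and 172 CPM in Rcm. These libraries did not overlap, but the difference was not called. The other 2 light chains tested were not called in any of the 5 comparisons.

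Gclc and Gclm encode the catalytic and the modifier subunit of glutamate-cysteine ligase. Gclc (ENSMUSG00000032350, chr9:77754535-77794485, plus strand) moved within a narrow range, from 66.0 to 96.9 CPM. In Rcm it was at 88.4, 89.4 and 80.8 CPM, in R-Scm 12 h at 72.1, 76.0 and 79.2 CPM and in R-Scm 24 h at 66.0, 77.8 and 68.6 CPM. All libraries of both R-Scm groups were thus below all Rcm libraries, by log2 fold changes of -0.19 (SE 0.09, adjusted p 0.264) at 12 h and -0.28 (SE 0.09, adjusted p 0.187) at 24 h in edgeR, and neither passed the call. In Scm it was at 83.1, 79.7 and 88.2 CPM, in S-Rcm 12 h at 87.7, 96.9 and 90.1 CPM, and S-Rcm 24 h was at 79.6, 88.8 and 78.3 CPM, with overlap in both comparisons. From the lowest, the group means stood in the order R-Scm 24 h, then R-Scm 12 h, then S-Rcm 24 h, Scm, Rcm and S-Rcm 12 h, with overlap in each neighbouring pair.

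Gclm (ENSMUSG00000028124, chr3:122245557-122270732, plus strand) did not move with its partner (r = 0.25 over 18 libraries) and spread more. It was at 51.1, 64.3 and 70.2 CPM in Scm, at 78.3, 119 and 71.1 CPM in S-Rcm 24 h and at 83.2, 79.96 and 57.5 CPM in S-Rcm 12 h. All 3 libraries of S-Rcm 24 h lay above those of Scm (log2 fold change 0.53, SE 0.21, adjusted p 0.476 in edgeR), while S-Rcm 12 h overlapped with Scm. It was at 68.7, 77.6 and 52.7 CPM in Rcm, at 68.8, 110 and 93.3 CPM in R-Scm 12 h and at 62.1, 53.8 and 56.5 CPM in R-Scm 24 h. The 24 h libraries of R-Scm lay below the 12 h libraries (log2 fold change -0.66, SE 0.21, adjusted p 0.171 in edgeR), and no difference of Gclm passed the call. Of its exonic bases, 4.71% overlap the opposite-strand gene Gm17494, which had 670 to 1442 counts per library.

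Gss, glutathione synthetase (ENSMUSG00000027610, chr2:155563181-155592810, minus strand), ranged from 45.2 to 72.1 CPM. It was at 58.4, 63.1 and 53.5 CPM in Scm and at 52.6, 47.4 and 47.2 CPM in Rcm, so that the groups did not overlap, but the log2 fold change of -0.25 (SE 0.16, adjusted p 0.457 in edgeR) was not called. The group means ran upwards from Rcm over S-Rcm 24 h, then R-Scm 24 h, Scm and R-Scm 12 h to S-Rcm 12 h, with overlap in each neighbouring pair. Its exons overlap those of Acss2 on the opposite strand over 6.68% of their length.

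Gsr encodes glutathione reductase, which returns oxidised glutathione to its reduced form with NADPH (ENSMUSG00000031584, chr8:33652523-33698163, plus strand). Its highest levels were the 3 libraries of S-Rcm 12 h at 120, 104 and 112 CPM, above every other library of the series. Scm was at 86.0, 93.9 and 86.4 CPM and S-Rcm 24 h at 79.6, 95.3 and 90.6 CPM. Rcm was at 94.0, 87.7 and 98.0 CPM, R-Scm 12 h at 87.2, 85.5 and 86.0 CPM and R-Scm 24 h at 76.7, 83.8 and 83.4 CPM.

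The difference of Gsr between S-Rcm 12 h and Scm came to 1.26-fold (log2 fold change 0.34, SE 0.08, adjusted p 0.0636 in edgeR) and met neither threshold of the call. Its adjusted p ran from 0.0113 to 0.229 over 17 alternatives, and it was called in none of them. The change on R-Scm at 12 h minus that on S-Rcm at 12 h was -0.45 on the log2 scale (SE 0.12, adjusted p 0.0623 in edgeR), and 2.03% of all genes were called in that comparison against 0 of the 8 genes described here (2 of 8 at an unadjusted p under 0.05, beside 14.7% of all genes, and 0 in each alternative run, DESeq2 included). From 12 h to 24 h of S-Rcm the log2 fold change of Gsr was -0.34 (SE 0.08, adjusted p 0.126). Of all genes tested 0.156% were called between these times, against 0 of the 8 genes (2 at an unadjusted p under 0.05, beside 9.26% of all genes, and 0 by DESeq2). Of the neighbours in the order of its group means, which was the same as that of Gclc, the lowest pair and the highest pair did not overlap.

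Chac1 encodes an intracellular enzyme that cleaves glutathione into cysteinyl-glycine and 5-oxoproline (ENSMUSG00000027313, chr2:119351229-119354381, plus strand), and its mRNA is a known marker of ATF4 activity and of cystine shortage. Its level was 30.3, 40.4 and 33.9 CPM in Scm and 16.9, 20.2 and 20.8 CPM in Rcm. In S-Rcm it was 20.04, 19.2 and 21.1 CPM at 12 h and 24.8, 23.5 and 25.5 CPM at 24 h. In R-Scm it was 14.7, 12.2 and 21.5 CPM at 12 h and 26.9, 29.5 and 45.5 CPM at 24 h. All libraries of Scm and of R-Scm 24 h thus lay above all libraries of the other 4 groups.

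In the order of the group means of Chac1, R-Scm 12 h (16.1 ± 4.83 CPM, SD, n = 3), Rcm (19.3 ± 2.10) and S-Rcm 12 h (20.1 ± 0.959) overlapped with their neighbours. S-Rcm 24 h (24.6 ± 0.998) stood apart from the groups on either side, and R-Scm 24 h (33.9 ± 10.1) overlapped with Scm (34.9 ± 5.11). In Rcm the level was 0.554 times that in Scm (log2 fold change -0.85, SE 0.20, adjusted p 0.0290 in edgeR). This call ended when Scm replicate 2, Scm replicate 3, Rcm replicate 1 or Rcm replicate 2 was left out, with log2 fold changes of -0.74, -0.87, -0.77 and -0.89 and adjusted p of 0.142, 0.0794, 0.137 and 0.0959.

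On the exchange from Scm to Rcm, Chac1 at 12 h was at 0.577 times the Scm level (log2 fold change -0.79, SE 0.20, adjusted p 0.0652 in edgeR). This missed the call, but DESeq2 on the 18 libraries gave an adjusted p of 0.00822. At 24 h the log2 fold change was -0.50 (SE 0.20, adjusted p 0.461 in edgeR), again with no overlap of the libraries.

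On the exchange from Rcm to Scm, Chac1 differed from Rcm by a log2 fold change of -0.26 at 12 h (SE 0.20, adjusted p 0.558 in edgeR), with overlap. At 24 h it was 1.76 times the Rcm level (log2 fold change 0.82, SE 0.20, adjusted p 0.0843 in edgeR), with no overlap. This was not called, but it was without R-Scm 24 h replicate 1 (log2 fold change 0.96, adjusted p 0.0145), where the number of genes called rose from 58 to 501, and by DESeq2 on the 18 libraries (log2 fold change 0.83, adjusted p 0.00911).

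Chac1 rose 2.11-fold between 12 h and 24 h of R-Scm (log2 fold change 1.08, SE 0.20, adjusted p 0.0145 in edgeR), where 0.774% of all genes were called and 1 of the 8 genes. This call ended without R-Scm 12 h replicate 1, R-Scm 12 h replicate 2 or R-Scm 24 h replicate 3, with log2 fold changes of 1.01, 0.91 and 0.82 and adjusted p of 0.0627, 0.0675 and 0.0709. It also ended in the edgeR fit of these 2 groups alone (log2 fold change 1.09, adjusted p 0.368), which called 2 of 14603 genes in all, while DESeq2 on the same groups called Chac1. After 24 h in the new serum, the R-Scm level differed from that of Scm by a log2 fold change of -0.04 (SE 0.20) and the S-Rcm level from that of Rcm by 0.35 (SE 0.20), with no call. Of all genes tested 0.592% and 0.221% were called in these comparisons, against 0 of the 8 genes in both (1 and 0 at an unadjusted p under 0.05, beside 10.1% and 7.48% of all genes, and 0 by DESeq2).

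The changes of Chac1 on the exchanges were set against each other in a test of the difference itself. Such a difference contains the one between the steady cultures Scm and Rcm. The test is thus not independent of the call in Rcm against Scm (log2 fold change -0.85 in edgeR). At 24 h the change on R-Scm minus the change on S-Rcm was 1.32 on the log2 scale (SE 0.28, adjusted p 0.0261 in edgeR), a call made for 1.37% of all genes and for 1 of the 8. It kept its sign without any single library. The adjusted p rose above 0.05, to between 0.0551 and 0.0832, without Scm replicate 2 or 3, Rcm replicate 1 or 2, R-Scm 24 h replicate 3 or any S-Rcm 24 h replicate, where the log2 values were between 1.07 and 1.35. At 12 h the difference was 0.53 (SE 0.28, adjusted p 0.416 in edgeR).

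**Figure D2:**
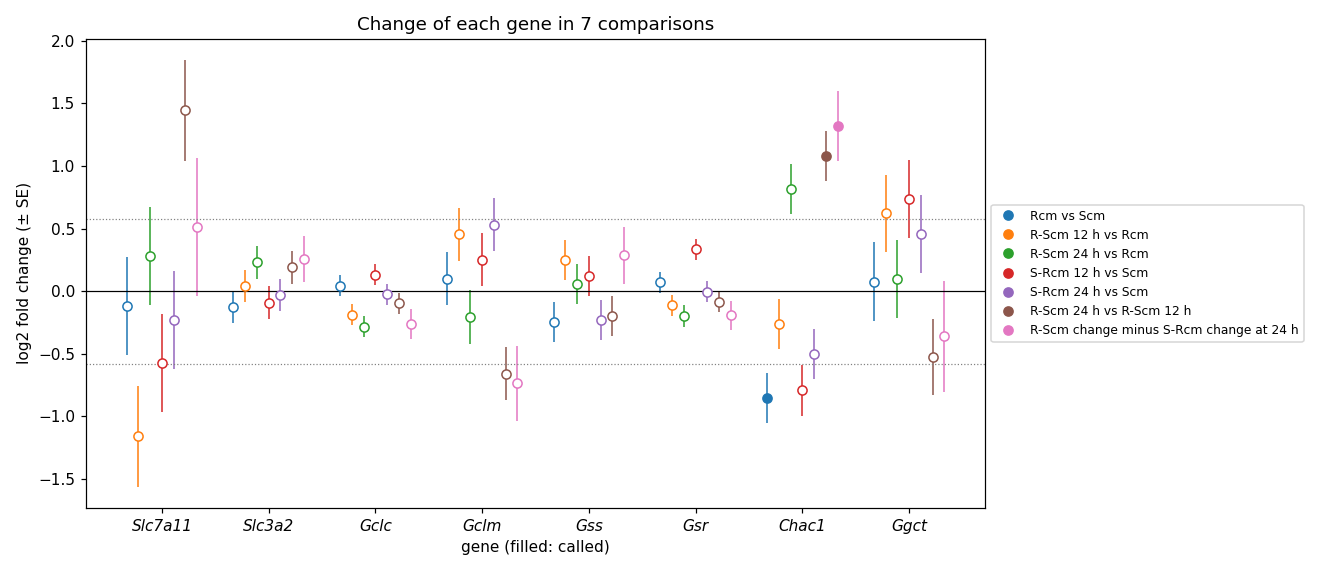
Log2 fold change (vertical axis) of each of the 8 genes (horizontal axis) in 7 comparisons shown by colour, with bars of 1 SE on either side; filled points passed the call and dotted lines mark 0.58 in either direction. The 3 filled points all belong to Chac1, at -0.85, 1.08 and 1.32.

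Ggct encodes gamma-glutamylcyclotransferase, which acts on gamma-glutamyl amino acids (ENSMUSG00000002797, chr6:54982580-54992950, minus strand). With 29 to 82 counts per library it was the gene with the least depth. It was at 2.35, 2.22 and 2.13 CPM in Scm and at 3.72, 3.14 and 4.33 CPM in S-Rcm 12 h, which did not overlap (log2 fold change 0.74, SE 0.31, adjusted p 0.282 in edgeR). A difference of this size was not called at this depth. The other groups spanned 1.68 to 5.03 CPM and each neighbouring pair in the order of group means (Scm, Rcm, R-Scm 24 h, then S-Rcm 24 h, then R-Scm 12 h, then S-Rcm 12 h) overlapped.

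Libraries that did not overlap were common in the whole table and are no result about these genes. Of the 8 genes 2 did not overlap in Rcm against Scm (23.9% of all genes tested), 2 in R-Scm 12 h against Rcm (23.4%), 3 in R-Scm 24 h against Rcm (11.2%), 3 in S-Rcm 12 h against Scm (26.4%) and 2 in S-Rcm 24 h against Scm (19.5%).

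Around these genes, 92 genes in 9 lists were examined, of which 74 passed the filter. Of the 74, 3 were called in Rcm against Scm (4.05%), 2 in R-Scm 12 h against Rcm (2.70%), 2 in R-Scm 24 h against Rcm (2.70%), 6 in S-Rcm 12 h against Scm (8.11%) and 1 in S-Rcm 24 h against Scm (1.35%). The percentages over all genes tested are those given above for the same comparisons.

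The list of ATF4 regulators and targets, genes of the amino acid and endoplasmic reticulum stress responses, had 12 members, and all 12 passed the filter. The median over the list, as a log2 fold change, was -0.28 for Rcm against Scm. It was -0.17 after 12 h and 0.27 after 24 h of R-Scm, against Rcm, and -0.42 after 12 h and -0.17 after 24 h of S-Rcm, against Scm. The number called was 1 lower, 1 lower, 1 higher, 2 lower and 1 lower in that order, and 5, 4, 6, 8 and 2 of the 12 were under an unadjusted p of 0.05, beside the 16.2%, 17.6%, 10.3%, 14.3% and 8.11% of all genes. Atf4 itself, which is regulated chiefly at translation, had log2 fold changes between -0.28 and 0.04 and was not called.

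Ddit3, which encodes the stress-induced factor CHOP, was called in 4 of the 5 comparisons. It stood at 48.7, 51.6 and 47.5 CPM in Scm and at 23.1, 24.6 and 31.4 CPM in Rcm (log2 fold change -0.90, SE 0.13, adjusted p 0.000913 in edgeR), and this call held in each of 17 alternatives. In S-Rcm it was at 31.2, 27.2 and 32.7 CPM at 12 h and at 29.9, 31.5 and 33.8 CPM at 24 h, below all Scm libraries (log2 fold changes -0.70 and -0.63, SE 0.13 each, adjusted p 0.0134 and 0.0389 in edgeR). In R-Scm 24 h it was at 35.9, 37.6 and 47.0 CPM, above all Rcm libraries (log2 fold change 0.61, SE 0.13, adjusted p 0.0491 in edgeR).

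The last 3 calls of Ddit3 were less firm. The call in S-Rcm 12 h ended without any single Scm library or S-Rcm 12 h replicate 2 (adjusted p 0.0503 to 0.0711), and that in S-Rcm 24 h without any single library of either group (0.106 to 0.185). That in R-Scm 24 h ended without Rcm replicate 1 or 2 or R-Scm 24 h replicate 2 or 3 (0.106 to 0.222), with log2 fold changes between 0.50 and 0.65, and in the fit of these 2 groups alone by edgeR (0.496) and by DESeq2 (0.124). It ended as well under upper-quartile scaling (0.0502) and with no filter on low counts (0.0547).

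Asns, asparagine synthetase, was at 89.8, 98.2 and 102 CPM in Scm and at 53.1, 56.4 and 53.4 CPM in S-Rcm 12 h (log2 fold change -0.83, SE 0.16, adjusted p 0.0160 in edgeR). Without any single library of these groups its adjusted p was 0.0510 to 0.0811. Asns was also lower without overlap after 12 h of R-Scm, at 51.9, 53.9 and 77.4 CPM against 81.4, 81.2 and 88.8 CPM in Rcm, and was not called there. Ddit4, an inhibitor of mTORC1, was lower in R-Scm 12 h (14.6, 12.7 and 12.9 CPM) than in Rcm (18.3, 21.8 and 27.7 CPM; log2 fold change -0.76, SE 0.18, adjusted p 0.0218 in edgeR). That call ended without Rcm replicate 2 or 3 or R-Scm 12 h replicate 2 or 3 (adjusted p 0.0532 to 0.110) and in the edgeR fit of these 2 groups alone (0.0819). Trib3, a pseudokinase induced by ATF4 and CHOP, was not called by edgeR in any of the 5 comparisons, with log2 fold changes of -0.86, -0.24, 0.96, -0.91 and -0.38, while DESeq2 on the 18 libraries called it in the first, the third and the fourth.

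**Figure D3:**
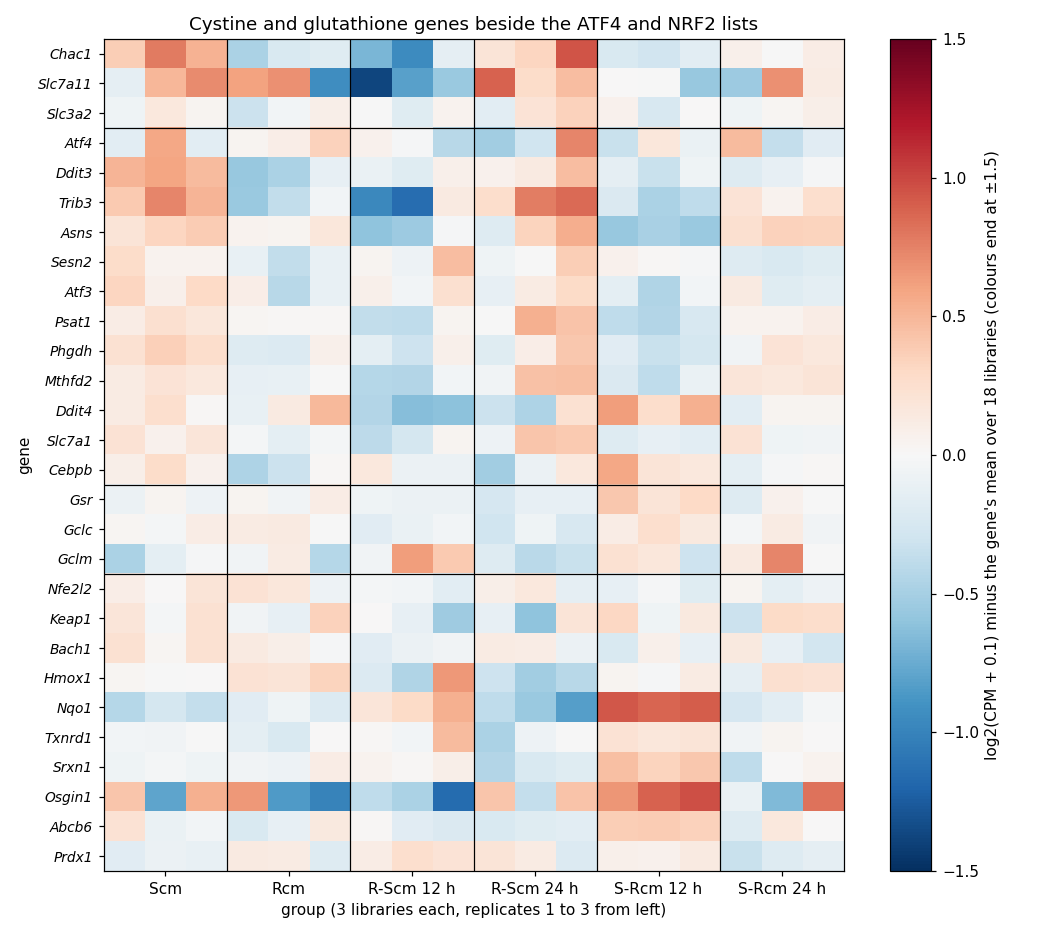
Colour gives log2(CPM + 0.1) of a gene minus its mean over the 18 libraries (red higher, blue lower), with genes as rows and the 3 libraries of each of the 6 groups as columns. From the top the blocks are Chac1, Slc7a11 and Slc3a2, the 12 genes of the ATF4 list, Gsr, Gclc and Gclm, and the 10 genes of the NRF2 list; Ddit3 is red in all 3 Scm libraries (47.5 to 51.6 CPM) and Nqo1 in all 3 of S-Rcm 12 h (330 to 344 CPM).

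The list of NRF2 regulators and targets had 10 members, all tested, and 1 call. Nqo1, the quinone reductase that is a standard readout of NRF2, was at 134, 150 and 141 CPM in Scm and at 344, 330 and 337 CPM in S-Rcm 12 h (log2 fold change 1.25, SE 0.11, adjusted p 1.91e-05 in edgeR), and it was called in each of 17 alternatives. At 24 h of S-Rcm it was at 151, 162 and 177 CPM and was not called. After 12 h of the opposite exchange, R-Scm, Nqo1 was at 204, 219 and 261 CPM against 160, 172 and 156 CPM in Rcm, without overlap (log2 fold change 0.49, SE 0.11, adjusted p 0.0165 in edgeR), which was below the fold threshold. The median log2 fold change of the list was 0.22 in S-Rcm 12 h against Scm, with 8 of 10 above 0 (53.5% of all genes) and 4 under an unadjusted p of 0.05 (14.3% of all genes). In the other 4 comparisons the median lay between -0.12 and -0.025, with 0 called by edgeR and by DESeq2 and 0, 2, 3 and 1 of 10 under an unadjusted p of 0.05. Srxn1, sulfiredoxin, had an adjusted p of 0.0407 in S-Rcm 12 h at a log2 fold change of 0.45, below the fold threshold. Nfe2l2, the gene of NRF2, lay between -0.20 and 0.0095.

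Of the 16 glutathione S-transferases, which join glutathione to other molecules, 12 were tested. Gsta4, which acts on the lipid peroxidation product 4-hydroxynonenal, was at 32.8, 38.5 and 35.9 CPM in Scm and at 119, 109 and 125 CPM in S-Rcm 12 h. This was a 1.72 log2 rise (SE 0.10, adjusted p 1.81e-07 in edgeR). At 24 h of S-Rcm Gsta4 was at 33.8, 38.4 and 41.1 CPM, overlapping with Scm. In R-Scm 24 h it was at 24.7, 20.6 and 20.1 CPM against 38.7, 41.8 and 43.8 CPM in Rcm (log2 fold change -0.93, SE 0.10, adjusted p 0.000860 in edgeR), a call that ended in the edgeR fit of these 2 groups alone at an unchanged log2 fold change (-0.93, adjusted p 0.172). That fit called 4 of 14494 genes in all, and DESeq2 on the same groups kept the call of Gsta4.

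The other calls in this list were smaller or less firm. Mgst2 was at 0.588, 0.971 and 1.31 CPM in Scm and at 2.19, 2.07 and 2.46 CPM in S-Rcm 12 h (log2 fold change 1.24, SE 0.29, adjusted p 0.0462 in edgeR), a call that ended without any single library of these groups (0.0589 to 0.217), without a filter on low counts (0.0935) and on these 2 groups alone by edgeR (0.0765) and by DESeq2 (0.0545). Gstm2 was higher in Rcm than in Scm (log2 fold change 0.60, SE 0.15, adjusted p 0.0330 in edgeR), which ended without any single Scm library or Rcm replicate 2 or 3 (0.0691 to 0.141) and in the edgeR fit of these 2 groups alone (0.0603). Gsto1 was higher in R-Scm 12 h than in Rcm (log2 fold change 0.85, SE 0.21, adjusted p 0.0303 in edgeR), which ended without Rcm replicate 3 or R-Scm 12 h replicate 1 or 3 (0.0587 to 0.124), without a filter on low counts (0.0540) and in the edgeR fit of these 2 groups alone (0.104). After 12 h of the opposite exchange, S-Rcm, Gsto1 was also above Scm without overlap (log2 fold change 0.68, SE 0.21, adjusted p 0.134 in edgeR), and was not called.

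NADPH, which Gsr consumes, is supplied by enzymes of which 9 were listed and tested. Nnt, the mitochondrial transhydrogenase, was called higher in Rcm (118, 116 and 116 CPM) than in Scm (61.4, 79.1 and 76.6 CPM; log2 fold change 0.69, SE 0.16, adjusted p 0.0279 in edgeR), a call that ended without any single Scm library or Rcm replicate 1 or 2 (0.0613 to 0.149). No other gene of this list was called, and DESeq2 on the 18 libraries called Nnt also in S-Rcm 24 h against Scm. The lists of cysteine supply (6 of 11 tested), glutathione breakdown (7 of 11), glutathione peroxidases and glutaredoxins (8 of 10) and glutathione transport (7 of 8) held 0 calls by edgeR and by DESeq2 on the 18 libraries in all 5 comparisons. Under an unadjusted p of 0.05 the cysteine supply list had 0, 2, 1, 1 and 0 genes, the breakdown list 0, 0, 0, 1 and 0, the peroxidases and glutaredoxins 1, 2, 0, 0 and 0, and the transport list 0, 0, 0, 2 and 0. The transferases had 6, 1, 5, 4 and 0 of 12 under that p and the NADPH list 2, 4, 3, 2 and 1 of 9, each beside the shares of all genes given above for the 5 comparisons.

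For each of the 8 genes, the genes most like it over the 18 libraries were sought by Pearson's r of log2 CPM among 13534 other tested genes with a mean of at least 1 CPM. The libraries share the 6 groups, so that these values describe likeness only. Chac1 was most like Trib3 (r = 0.95), Sars, the seryl-tRNA synthetase (r = 0.92), and Mthfd1l, an enzyme of mitochondrial folate metabolism (r = 0.91). Of these, the promoter window of Trib3 held a match to TGATGNAAN and those of Sars and Mthfd1l held none. Gsr was most like Pgd, the NADPH-forming 6-phosphogluconate dehydrogenase (r = 0.93), Them6 (r = 0.93) and Srxn1 (r = 0.91). Pgd was at 174 to 192 CPM in Scm and at 229 to 276 CPM in S-Rcm 12 h (log2 fold change 0.48, adjusted p 0.0192 in edgeR), below the fold threshold.

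**Figure D4:**
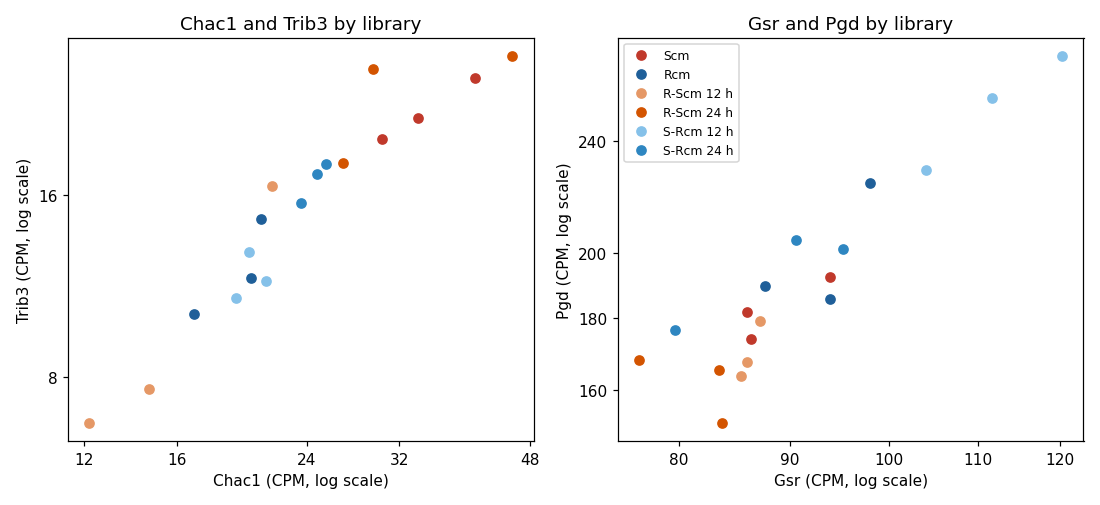
CPM of Trib3 against Chac1 (left) and of Pgd against Gsr (right), with 1 point per library coloured by group and log axes. The 18 libraries follow a line in both panels (r = 0.95 and 0.93), with the 3 of S-Rcm 12 h at the top right for Gsr and Pgd.

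The genes most like Slc3a2 were Pim3 (r = 0.90), Zfp593 (r = 0.88) and Jmjd6 (r = 0.88), and those most like Gclc were Zfp248 (r = 0.84), Cdc14a (r = 0.83) and Pik3r1 (r = 0.83). The closest were weaker for Ggct (Prpf18, Tmem117 and Cfdp1, r = 0.76 to 0.79), Gclm (Napb, BC002059 and Cep97, r = 0.68 to 0.77), Slc7a11 (Phlpp2, Bcl7a and Pitpnm2, r = 0.71 to 0.72) and Gss (Mageh1, 6330418K02Rik and Gem, r = 0.69 to 0.72). Among the 8 genes themselves the highest values were 0.66 for Gclc with Gsr, 0.65 for Slc3a2 with Chac1 and 0.55 for Slc7a11 with Chac1, and the lowest was -0.48 for Gclm with Chac1.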

How the data were processed

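RNA was extracted by the authors with the RNeasy mini kit, sequenced as paired ends on an Illumina NovaSeq and aligned to GRCm38 with HISAT2. The deposited values are raw counts per gene for 18 libraries, made by the authors without normalization. The counting tool, its use of strand and its treatment of multiple alignments are not given in the sources used here. All 18 columns were assigned to samples by their labels, and 0 were left out.

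Counts were filtered with filterByExpr by group, scaled by TMM and fitted over all 18 libraries with edgeR 4.0.16 (robust quasi-likelihood, 12 residual degrees of freedom, biological coefficient of variation 0.173). Tested were Rcm against Scm, each exchange against its culture of origin, the times, the new serum and the difference between the exchanges. Alternatives were DESeq2 1.42.0, which the authors used, RLE and upper-quartile scaling, other filters and thresholds, fits of the compared groups alone, a replicate block and leaving out each library. Scripts were tested on simulated data.

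The members and lists were chosen with earlier results of these data known. Named were all 8 members, every list gene called in the 5 main comparisons and the 3 genes most like each member. Coordinates come from GENCODE M21 on GRCm38, promoters from RefSeq, copies from blastn 2.17.0 (at least 95% identity over 100 bases). A symbol on 2 gene IDs (Ddit3, Nnt) was read from the ID with more counts. Reads carry no molecular identifiers as far as stated, so that depth covers counting error only.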

Additional observations from a re-analysis of the deposited data

Results flagged for a closer look

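The change of Chac1 on R-Scm at 24 h minus its change on S-Rcm at 24 h, 1.32 on the log2 scale (SE 0.28, adjusted p 0.0261 in edgeR), stands out because the exchanges differed in a test of the difference itself. The mean level was 33.9 CPM in R-Scm 24 h against 19.3 CPM in Rcm, and 24.6 CPM in S-Rcm 24 h against 34.9 CPM in Scm. The level was thus higher after the first exchange and lower after the second. The unpaired libraries did not overlap in either comparison, which held for 11.2% and 19.5% of all genes tested. Both changes are measured against steady cultures that themselves differed in Chac1 (log2 fold change -0.85 in Rcm against Scm). That difference is a part of the 1.32, so that the result is not independent of the call in Rcm against Scm.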

How the results depend on the processing

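The directions of the 3 calls of Chac1 held under all alternatives run; the calls did not. At an adjusted p under 0.01 the members called fell to 0 in Rcm against Scm, R-Scm 24 h against 12 h and the difference at 24 h. Over single libraries left out, the count ran from 0 to 1 in these comparisons and in R-Scm 12 h and 24 h against Rcm. DESeq2 on the 18 libraries called 1 member in each of R-Scm 12 h (Slc7a11), R-Scm 24 h (Chac1) and S-Rcm 12 h (Chac1), beside the shares given above. In R-Scm 24 h against 12 h it called 2 (Slc7a11 and Chac1), beside 234 of 15372 genes. On the compared groups alone DESeq2 called 1, 0, 1 and 2 members. Over all genes those fits called 539 of 14629, 89 of 14484, 378 of 14540 and 132 of 14593. edgeR on the compared groups alone called 1 member in S-Rcm 12 h, beside 260 of 14545 genes. It called 0 members in R-Scm 24 h against 12 h, beside 2 of 14603 genes. The cause was not tested.

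With a replicate block by title number, or by column number (chosen after seeing the data, since 3 groups have other numbers in the columns), 1 member (Chac1, adjusted p 0.0380 and 0.0290 in edgeR) was called in S-Rcm 12 h and no other count of members moved. Over all genes these fits called 121 and 105 of 15381 in S-Rcm 12 h. The calls of Gstm2 in Rcm against Scm (adjusted p 0.0522 and 0.0690 in edgeR) and Mgst2 in S-Rcm 12 h (0.0601 and 0.0617) ended under both blocks, and those of Gsto1 in R-Scm 12 h (0.0673) and Ddit3 in R-Scm 24 h (0.167) under the second. Deviations of libraries with the same title number correlated at -0.196 to 0.346, in no comparison above 0.1 for every pair. By column number they ran from -0.208, and were above 0.1 for every pair only in S-Rcm 24 h against Rcm (0.165 and 0.125), which shares 2 numbers. Nothing in the labels ties the numbers to a shared batch, so that the libraries share only a number.

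Signs turned only for members not called. By left-out library the log2 fold change in Rcm against Scm ran from -0.029 to 0.23 for Gclm, from -0.36 to 0.27 for Ggct and from -0.37 to 0.23 for Slc7a11. In R-Scm 12 h it ran from -0.063 to 0.14 for Slc3a2 (-0.020 with the column-number replicate block). In R-Scm 24 h it ran from -0.10 to 0.53 for Ggct, from -0.084 to 0.16 for Gss and from -0.072 to 0.54 for Slc7a11. In S-Rcm 24 h it ran from -0.084 to 0.015 for Gclc, from -0.061 to 0.066 for Gsr (0.0010 with upper-quartile scaling), from -0.081 to 0.030 for Slc3a2 and from -0.58 to 0.033 for Slc7a11. The cause was not tested. Of all single-gene values compared 838 kept their direction and side of the call, 89 lost a call, 10 gained one and 21 changed sign. DESeq2 on the 18 libraries called 165 genes in R-Scm 24 h against Rcm where edgeR called 58, and 268 against 132 in S-Rcm 12 h. The 3 libraries per group limit what can be called, most for Slc7a11, whose libraries spread most, and for Ggct, whose counts are lowest.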
